A study of Homo sapiens with 8 samples.

Results

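Notch signalling was followed through 10 genes in control and sodium benzoate (SB)-treated cells: the receptors NOTCH1, NOTCH2 and NOTCH3, the ligands JAG1, JAG2 and DLL1, and the target genes HES1, HES4, HEY1 and NRARP. They were taken by name, as listed genes with a row in the deposited expression table, and all 10 have a row among its 14526 genes. The samples were 8 RNA-seq libraries of cells labelled HepG2, a line derived from a human liver carcinoma, all grown in DMEM with 10% FBS. In 4 libraries the cells had received SB at 10 mM for 24 h, and the other 4 were controls. SB is a food preservative and drug that the study used to raise lysine benzoylation on histones, and the RNA-seq compared transcript levels with and without it. The labels call the 4 libraries of a group biological replicates of this 1 line and do not say how the cultures were kept apart. The p-values below measure only the spread between these libraries.

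Notch is a receptor that cells use to signal to a neighbour. A ligand of the Jagged or Delta family on one cell binds it on the next, an ADAM protease and then gamma-secretase cut the receptor, and the freed intracellular domain enters the nucleus. There it joins the DNA-binding protein RBPJ and a Mastermind co-activator and switches on genes such as the HES and HEY repressors and NRARP, a feedback inhibitor. In the liver the pathway is known for its part in bile duct formation.

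Transcripts of the target genes HES1 and HEY1 fell most among the 10 genes. By the ratio of group means HES1 fell by 58.1% and HEY1 fell by 42.7% in SB-treated cells. In bulk RNA, fewer cells that express a gene and less of its RNA per cell cannot be told apart. NOTCH3 fell by 30.2%, DLL1 fell by 28.3%, NRARP fell by 14.6% and JAG1 fell by 12.3%. NOTCH1, NOTCH2, JAG2 and HES4 did not pass the test, and none of the 10 genes passed it as higher.

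Levels are given as RPKM, the reads on a gene scaled by its length and by the size of the library, so they can be set beside each other between genes. Changes are log2 fold changes of RPKM + 1, SB-treated minus control, from limma, a linear model fitted to all 14526 genes, with p-values adjusted by the Benjamini-Hochberg method over all of them. The added 1 RPKM makes the change of a low gene look smaller. By this test 6 of the 10 genes were lower and 0 higher with an adjusted p below 0.05. Among all genes 32.6% were lower and 33.0% higher, together 65.6%, so a call alone says little about a gene here. The same 6 genes had 4 SB-treated values that all lay below the 4 control values, which held for 30.5% of all genes, while groups apart in the other direction were found for 31.0%. At unadjusted p below 0.05 no further gene of the 10 was called, and voom, a second limma method, also called 6 lower and 0 higher. The median log2 fold change was -0.16 over the 10 genes and 0.00 over all genes.

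A few facts about the libraries bear on these values. Whole reads behind the RPKM values could be recovered for every gene, and the libraries held between 36990091 and 44878446 of them. Of 20 genes characteristic of hepatocytes, 3 have a row, among them TF, at 0.167 to 0.210 RPKM in the controls and 0.316 to 0.485 RPKM in SB-treated cells, and CYP2E1, at 0.134 to 0.264 and 0.558 to 0.800 RPKM. TF had 19 to 25 reads in the controls and 40 to 52 with SB, and CYP2E1 had 8 to 18 and 37 to 62. Both passed the authors' limit of more than 1 CPM in 2 or more samples only through SB-treated libraries, where their levels are higher. Their rise is thus no independent result. ALB, AFP, APOA1, APOB, TTR and HNF4A are among those without a row, so most defining liver markers of the labelled line are absent from the table used here. If that limit was the only filter, these genes were not above 1 CPM in 2 or more samples. The marker values do not bear out the HepG2 label, and the identity of the cells was not tested. Of other cell types, 1 of 5 endothelial, 3 of 6 fibroblast and 2 of 5 leukocyte markers have a row. The endothelial gene KDR was lower in SB-treated cells, at 0.268 to 0.348 RPKM in the controls and 0.113 to 0.185 RPKM with SB (limma adjusted p = 0.00104). With 66 to 83 reads in the controls and 29 to 46 with SB, KDR was clearly above 1 CPM only in the controls. The p-value does not allow for this. The summed fibroblast level was 6.14 to 8.58 and 6.02 to 6.39 RPKM, and COL3A1 among them fell from 2.49 ± 0.226 to 1.497 ± 0.0944 RPKM (SD, n = 4 each, adjusted p = 3.35e-05 by limma). The summed leukocyte level was 2.39 to 2.83 and 2.53 to 3.17 RPKM. PECAM1, CDH5, VWF, DCN, COL1A2, PTPRC and CD3E have no row, and the part of other cells in the results was not tested. Control replicate 1 stood apart from the other controls, and GC content accounted for 51.3% of the variance across genes in its distance from them. Among the controls it was the lowest for NOTCH1, NOTCH2, NOTCH3, JAG2 and DLL1 and the highest for HES1, HEY1, NRARP and JAG1. Without it the log2 fold changes were -1.15 for HES1, -0.76 for HEY1, -0.40 for DLL1 and -0.11 for JAG1, and those of the other genes are given with their results.

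**Figure D1:**
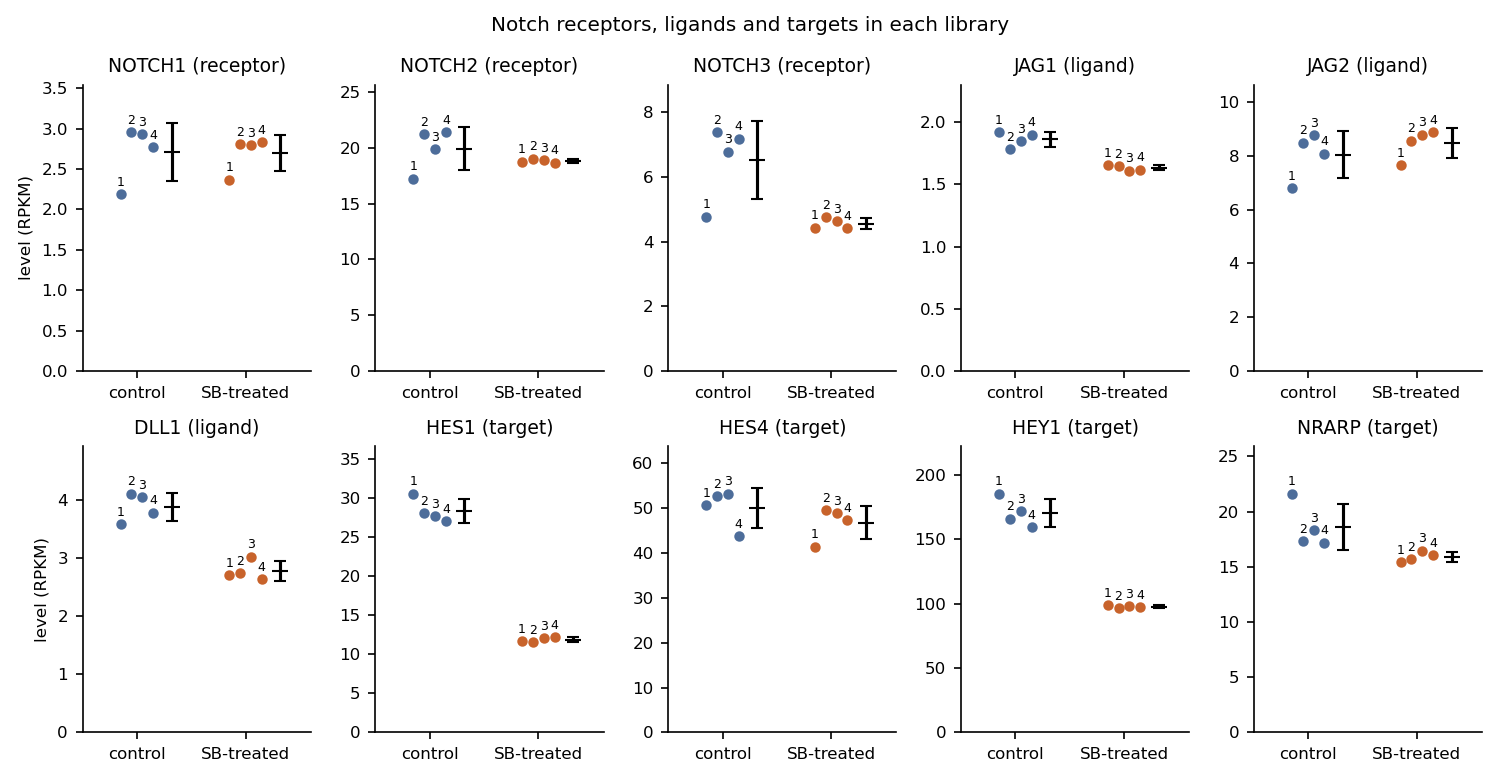
RPKM of each of the 10 genes in the 4 control (blue) and 4 SB-treated (orange) libraries, on axes from 0, with the replicate number over each point and the mean ± SD of the group as a black bar. The SB-treated points lie below all control points for NOTCH3, JAG1, DLL1, HES1, HEY1 and NRARP and overlap the control points for the other 4 genes.

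HES1 and HES4 are close relatives, basic helix-loop-helix repressors that Notch is known to switch on through RBPJ. The start regions of both genes are shown because both carry the same RBPJ word ahead of the RefSeq start and the genes differed in response. The sequences are from RefSeq on GRCh38.p14 and run 5′ to 3′ along the gene's own strand over the 120 bases before its start site. Capitals mark GTGGGAA, the RBPJ word searched on both strands, which begins at -85 in HES1 and at -77 in HES4, counted from the RefSeq start site. For HES4 that start lies inside the GENCODE gene, which reaches to 1000172, so the place of the word depends on the annotation, while for HES1 both give the same start. HES1 lies at chr3:194136028-194136147 on the plus strand and HES4 at chr1:1000098-1000217 on the minus strand.
HES1: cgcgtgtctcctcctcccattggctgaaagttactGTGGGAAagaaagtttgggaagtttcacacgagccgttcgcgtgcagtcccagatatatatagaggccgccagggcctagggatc
HES4: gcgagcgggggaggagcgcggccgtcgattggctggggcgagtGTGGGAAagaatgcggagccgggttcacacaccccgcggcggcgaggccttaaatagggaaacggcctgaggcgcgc
Windows from 250 bases before to 50 after the start were at hand for 8 of the 10 genes in the set of RefSeq promoters used here. HEY1 and DLL1 had no window in it and were not searched. The word was in none of the windows of NOTCH1, NOTCH2, NOTCH3, JAG1, JAG2 and NRARP, and 6.25% of all 35116 such windows hold it on either strand. A match is a run of letters and no evidence that RBPJ binds there.

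HES1, the gene most often used as a readout of Notch, had 30.6, 28.0, 27.7 and 27.1 RPKM in control replicates 1 to 4. In SB-treated replicates 1 to 4 it had 11.7, 11.6, 12.1 and 12.2 RPKM. Every SB-treated value was under the lowest control value by a wide margin, and the spread within each group was small. The means were 28.4 ± 1.53 RPKM (SD, n = 4) and 11.9 ± 0.306 RPKM (SD, n = 4), from 1447 to 1901 reads per control library and 657 to 829 per SB-treated library. The log2 fold change was -1.19 (SE 0.043 and adjusted p = 1.06e-07 by limma), the fall of rank 15 among the 14526 genes. The gene covers chromosome 3 of hg38 from 194136148 to 194138732 on the plus strand in GENCODE.

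HEY1, a related repressor with a known role in vessel and heart formation, was the most abundant of the 10 transcripts. It had 185, 166, 172 and 160 RPKM in the control replicates, a level above that of 98.0% of genes. SB-treated replicates had 98.8, 96.6, 98.2 and 97.4 RPKM. The groups did not overlap, and the SB-treated libraries differed from one another by far less than the controls did. The means were 170.7 ± 11.0 and 97.7 ± 0.970 RPKM (SD, n = 4 each), with a log2 fold change of -0.80 (SE 0.047 and adjusted p = 1.02e-06 by limma), rank 119 among falls. HEY1 covers chromosome 8 from 79762371 to 79767857 on the minus strand.

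HES4 did not follow HES1. Its control values were 50.6, 52.7, 53.2 and 43.7 RPKM and its SB-treated values 41.4, 49.5, 48.8 and 47.4 RPKM, so the groups overlapped. The log2 fold change was -0.09 with a 95% interval from -0.26 to 0.07 (limma adjusted p = 0.283). The gene covers chromosome 1 from 998962 to 1000172 on the minus strand, and its GC content of 73.9% is the highest of the 10.

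NRARP, the ankyrin-repeat protein that dampens Notch, had 21.6, 17.3, 18.3 and 17.2 RPKM in the controls against 15.4, 15.7, 16.5 and 16.0 RPKM in SB-treated cells. The groups lay close but apart, and control replicate 1 was the highest value. On the log2 scale NRARP changed by -0.21 (SE 0.066 and adjusted p = 0.0189 by limma) and -0.14 (adjusted p = 0.00359) without that library. Library sizes without the authors' TMM scaling gave -0.11 with an adjusted p of 0.154, so the call was lost without it. NRARP covers chromosome 9 from 137299631 to 137302271 on the minus strand, and a gene on the opposite strand overlaps it, as also at NOTCH1, NOTCH2 and JAG1. The kit was stranded, but the sources used here do not say whether strand was used in counting.

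The target genes changed unequally, as differences of log2(RPKM + 1) between genes within each library showed. HES1 minus HES4 went from -0.80 ± 0.12 in control to -1.89 ± 0.11 in SB-treated libraries (SD, n = 4 each, exact permutation test, two-sided p = 0.0286, adjusted p = 0.0381 over 12 pairs). HES1 also fell further than HEY1, by 0.39 on the log2 scale, and further than NRARP, by 0.98. HEY1 fell further than both HES4 and NRARP, by 0.70 and 0.59. Each of these 5 differences had the same adjusted p of 0.0381, since 4 against 4 allow no exact p below 0.0286. How often pairs of other genes differ in this way was not tested. Among single genes the groups lay apart for 30.5% as lower and 31.0% as higher, so separated pairs need not be particular to these genes. For HES4 minus NRARP the difference moved by 0.11 only, with an exact permutation p of 0.257.

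These shifts changed the make-up of the target transcripts. HEY1 took 63.8 ± 0.776% of the summed RPKM of the 4 targets in control and 56.7 ± 1.54% in SB-treated libraries (SD, n = 4 each). The share of HES1 went from 10.6 ± 0.289% to 6.90 ± 0.166%, while HES4 went from 18.7 ± 1.27% to 27.1 ± 1.65% and NRARP from 6.94 ± 0.400% to 9.23 ± 0.135%. The groups were apart for every one of these shares (exact permutation test, two-sided p = 0.0286, adjusted p = 0.0357 over 10 shares). Shares add up to the whole in each library, so a loss in 1 gene is a gain in others. The results for these shares, and for those of receptors and ligands below, are thus not separate from each other. Single genes of the whole table lay apart for 30.5% as lower and 31.0% as higher. HES4 and NRARP gained in share although neither rose in level. The sum over the 4 targets was between 247.5 and 288 RPKM in the controls and between 167 and 176 RPKM in SB-treated libraries.

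**Figure D2:**
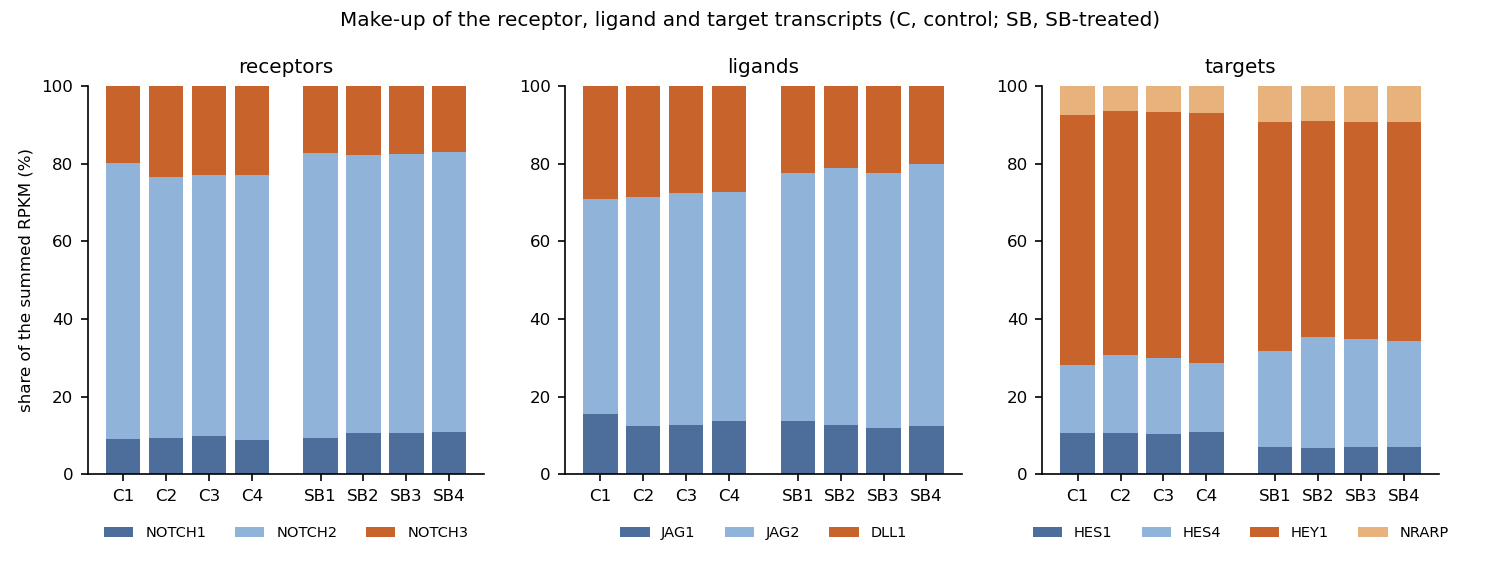
Share of each gene in the summed RPKM of the receptors, of the ligands and of the targets, in percent, as 1 stacked bar per library (C, control; SB, SB-treated; replicates 1 to 4). The NOTCH3, DLL1, HES1 and HEY1 parts are smaller in all SB-treated bars, and the NOTCH2, JAG2, HES4 and NRARP parts are larger.

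Among the receptors, NOTCH2 gave most of the transcripts and NOTCH3 was the one that fell. NOTCH3, which in the body is best known from vascular smooth muscle, had 4.77, 7.39, 6.78 and 7.19 RPKM in the controls and 4.44, 4.76, 4.64 and 4.41 RPKM in SB-treated cells. The groups were apart, though by a hair, since control replicate 1 lay far below the other controls and just above the highest SB-treated value. The means were 6.53 ± 1.2 and 4.56 ± 0.166 RPKM (SD, n = 4 each), with a log2 fold change of -0.42 (SE 0.10 and adjusted p = 0.00546 by limma). Without control replicate 1 it was -0.55 (adjusted p = 1.00e-06). NOTCH3 covers chromosome 19 from 15159038 to 15200995 on the minus strand.

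NOTCH2 had 17.2, 21.2, 19.8 and 21.4 RPKM in the controls and 18.7, 19.0, 18.9 and 18.7 RPKM in SB-treated cells. All SB-treated values lay above control replicate 1 and below the other 3 controls. The log2 fold change was -0.07 with a 95% interval from -0.21 to 0.07 (limma adjusted p = 0.321), and -0.14 (adjusted p = 0.00261) without control replicate 1. NOTCH2 covers chromosome 1 from 119911553 to 120100779 on the minus strand and has near-identical partial copies, so reads on the shared exons may be split between them. One such copy, NOTCH2NL, has a row of its own and fell from 5.25 ± 0.138 to 4.39 ± 0.194 RPKM (SD, n = 4 each, log2 fold change -0.21, limma adjusted p = 6.88e-04).

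NOTCH1, the receptor of T-cell and arterial development, had 2.19, 2.96, 2.93 and 2.77 RPKM in the controls and 2.37, 2.81, 2.79 and 2.83 RPKM in SB-treated cells. Replicate 1 was the lowest library in both groups, and the groups overlapped over most of their range. The log2 fold change was -0.00 with a 95% interval from -0.17 to 0.16 (limma adjusted p = 0.985). Without control replicate 1 it was -0.07 (adjusted p = 0.184). NOTCH1 covers chromosome 9 from 136494433 to 136546048 on the minus strand.

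Relative to the other receptors, NOTCH3 lost ground. Its share of the summed receptor RPKM went from 22.3 ± 1.70% to 17.5 ± 0.375%, and that of NOTCH2 from 68.5 ± 1.91% to 72.2 ± 0.810% (SD, n = 4 each, exact permutation test, two-sided p = 0.0286, adjusted p = 0.0357 for each). The log2 difference NOTCH2 minus NOTCH3 grew by 0.35 and NOTCH1 minus NOTCH3 by 0.42 (exact permutation test, adjusted p = 0.0381 for each), while NOTCH1 minus NOTCH2 moved by 0.07 (exact p = 0.257). The summed receptor level was 29.2 ± 3.44 RPKM in control and 26.1 ± 0.452 RPKM in SB-treated libraries, and the groups overlapped (exact permutation p = 0.143).

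Among the ligands DLL1 fell most. DLL1, a Delta-family ligand, had 3.58, 4.10, 4.04 and 3.77 RPKM in the controls and 2.70, 2.74, 3.02 and 2.64 RPKM in SB-treated cells. The groups were well apart. On the log2 scale DLL1 changed by -0.37 (SE 0.048 and adjusted p = 1.06e-04 by limma), from a mean of 3.87 ± 0.243 to 2.78 ± 0.169 RPKM (SD, n = 4 each). DLL1 covers chromosome 6 from 170282206 to 170306565 on the minus strand and overlaps FAM120B on the other strand. The length its reads were divided by, 6620 bases, exceeds the 3819 bases of its GENCODE exons, so its level beside other genes is uncertain.

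JAG1, the ligand mutated in Alagille syndrome with its lack of bile ducts, was the least abundant of the 10. It had 1.92, 1.78, 1.85 and 1.90 RPKM in the controls and 1.66, 1.65, 1.61 and 1.62 RPKM in SB-treated cells, from 381 to 489 reads per library. The fall was small, but the groups did not overlap. JAG1 changed by -0.12 on the log2 scale (SE 0.032 and adjusted p = 0.00756 by limma), and it was -0.05 (adjusted p = 0.150) without the TMM scaling. JAG1 covers chromosome 20 from 10637684 to 10673999 on the minus strand.

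JAG2, the other Jagged ligand, had 6.81, 8.49, 8.78 and 8.08 RPKM in the controls and 7.66, 8.58, 8.80 and 8.89 RPKM in SB-treated cells. Replicate 1 was again the lowest in both groups, and the groups overlapped. Its change of 0.07 had a 95% interval from -0.09 to 0.24 (limma adjusted p = 0.408), and it was 0.00 without control replicate 1. JAG2 covers chromosome 14 from 105140982 to 105168824 on the minus strand.

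JAG2 gave most of the ligand transcripts, and its share grew. It took 58.3 ± 2.02% of the summed ligand RPKM in control and 65.7 ± 1.62% in SB-treated libraries, and DLL1 went from 28.1 ± 0.800% to 21.6 ± 1.18% (SD, n = 4 each, exact permutation test, two-sided p = 0.0286, adjusted p = 0.0357 for each). The share of JAG1 was 13.6 ± 1.47% and 12.7 ± 0.776%, with overlapping groups (exact p = 0.343). The log2 difference JAG2 minus DLL1 grew by 0.44 and JAG1 minus DLL1 by 0.25 (exact permutation test, adjusted p = 0.0381 for each). The latter no longer passed with a pseudocount of 0.1 RPKM (0.29, exact permutation test, adjusted p = 0.0762). JAG1 minus JAG2 moved by -0.19 (exact permutation p = 0.0857).

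Several of these genes are rich in G and C, and the results of these and of others moved when GC and gene length were corrected for together. NOTCH1, NOTCH3 and JAG2 had a GC content between 63.1% and 64.1%, HEY1 one of 45%, and the median gene 47.9%. NOTCH2 and JAG1, at 49.4% and 49.6%, were near that median, and the lengths their reads were divided by were 11825 and 5987 bases. Genes with a GC content of 60 to 65% had a median log2 fold change of 0.07, those of 45 to 50% one of -0.01 and those below 45% one of -0.04. With each library's GC and length trend removed, the log2 fold change was -0.26 for NOTCH1 (limma adjusted p = 6.63e-05), -0.24 for NOTCH2 (adjusted p = 8.18e-04) and -0.14 for JAG2 (adjusted p = 0.00446). It was -0.67 for NOTCH3, -0.56 for DLL1, -1.03 for HES1 and -0.71 for HEY1, and for JAG1 it was -0.23 (adjusted p = 7.32e-05 by limma). With this correction 8 of the 10 genes were lower, against 36.6% of all genes. This correction also takes out any difference between the groups themselves that is linked to GC or length. The parts of GC and of length in these moves were not tested apart. HES1, HEY1, DLL1 and NOTCH3 were lower with an adjusted p below 0.05 under every alternative run.

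**Figure D3:**
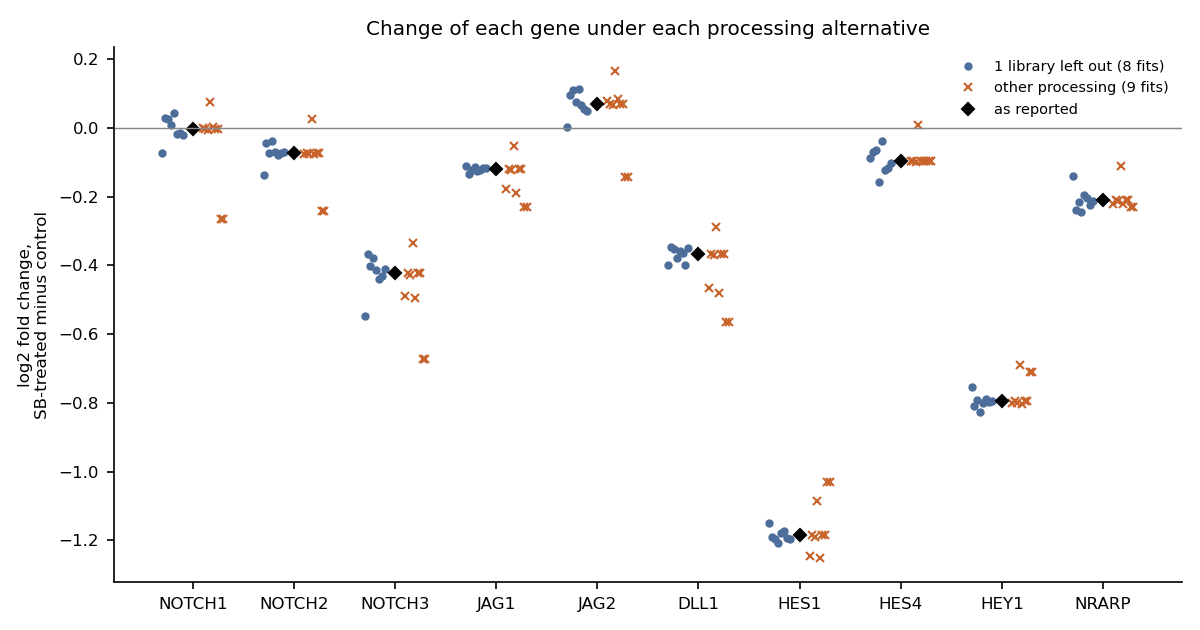
Log2 fold change of each of the 10 genes (y axis, SB-treated minus control) as reported (black diamonds), in the 8 fits that each leave out 1 library (blue dots) and in 9 fits with other processing (orange crosses). HES1, HEY1, NOTCH3, DLL1, JAG1 and NRARP stay below 0 throughout, while NOTCH1, NOTCH2, JAG2 and HES4 cross 0 in at least 1 fit.

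The order of the levels differed between the groups. In control libraries it ran HEY1, HES4, HES1, NOTCH2, NRARP, JAG2, NOTCH3, DLL1, NOTCH1 and JAG1, with NOTCH2 and NRARP and also JAG2 and NOTCH3 overlapping in their libraries. In SB-treated libraries HES1 stood below both NOTCH2 and NRARP, and DLL1 and NOTCH1 overlapped. All 10 genes were at or above 1 RPKM in every library.

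By likeness over the 8 libraries, the genes closest to HES1 were EBNA1BP2, DKC1 and CUTC, and those closest to HEY1 were STIP1, KDM1A and TATDN3, all with a Pearson r of log2(RPKM + 1) of 0.999. These r values mostly reflect the step between the groups, which all libraries share, and 369 of 12544 genes had an r above 0.99 with HES1. HEY1 was the Notch gene most like HES1, with an r of 0.997, followed by JAG1 with 0.95 and DLL1 with 0.94.

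The rest of the pathway did not move one way. Of 63 further Notch pathway genes, 53 have a row, of which 17 were higher, 14 lower and 22 not called, with a median log2 fold change of -0.00. The share called, in either direction, is to be read against 65.6% of all genes. Without control replicate 1 the counts were 21 higher and 22 lower, and 75.5% of all genes were called.

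In the nuclear complex all 7 genes passed the test, 3 higher and 4 lower, where 65.6% of all genes passed. RBPJ, the DNA-binding partner of the Notch intracellular domain, fell from 26.0 ± 1.2 to 21.6 ± 0.385 RPKM (SD, n = 4 each, log2 fold change -0.25, adjusted p = 3.50e-04 by limma). Of the Mastermind co-activators MAML1 rose from 22.4 ± 1.13 to 30.0 ± 0.389 RPKM, with a log2 fold change of 0.41, while MAML3 fell by 0.27 on the log2 scale. SNW1, which also works in splicing, fell by 0.31. Of the 9 RBPJ co-repressors 2 were higher, among them SPEN with a log2 fold change of 0.36, and 4 were lower. Over all genes 33.0% were higher and 32.6% lower. TLE4 and TLE1, Groucho-family proteins that HES factors recruit, fell by 0.41 and 0.38 on the log2 scale.

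Of the 9 genes with a row for endocytosis and ubiquitination of ligand and receptor, 5 were higher and 0 lower. Among all genes 33.0% were higher and 32.6% lower. The rise of MIB2, a ubiquitin ligase that activates ligands, was the largest change among these 53 further genes. It went from 3.10 ± 0.199 to 7.69 ± 0.629 RPKM (SD, n = 4 each), with a log2 fold change of 1.08 (adjusted p = 6.81e-07 by limma). AAK1, a kinase of clathrin-mediated endocytosis, rose with a log2 fold change of 0.32 and the ligase NEURL1B with 0.25, which was 0.07 (adjusted p = 0.10) after the GC and length correction. DTX1, DTX3 and DTX4 have no row.

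Receptor maturation and cleavage genes moved both ways. FURIN, the protease that cuts the receptor on its way to the surface, rose from 13.6 ± 1.31 to 21.3 ± 0.884 RPKM (SD, n = 4 each, log2 fold change 0.62, adjusted p = 2.49e-05 by limma). POGLUT1, which adds glucose to the receptor, rose with 0.33, and LFNG, a Fringe glycosyltransferase, fell by 0.17 from a level of 0.425 RPKM. LFNG had 43 to 68 reads in the controls and 26 to 45 with SB. It passed the authors' limit of 1 CPM only through the controls, where its level is higher. Its fall is thus no independent result, though LFNG is counted among the 14 lower pathway genes. MFNG has no row. Of 8 cleavage genes 3 were higher and 2 lower, against 33.0% and 32.6% of all genes. APH1B, a gamma-secretase subunit, rose with 0.30 and the protease ADAM10 with 0.21, while ADAM17 fell by 0.17, or by 0.07 (limma adjusted p = 0.0894) without the TMM scaling. CDK8 and CCNC, the kinase and cyclin that mark the intracellular domain for decay, fell by 0.34 and 0.33, and FBXW7, the third gene of that list, did not pass the test.

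Of the other HES and HEY genes, 1 of 5 with a row passed the test, where 65.6% of all genes passed. HEYL rose from 3.14 ± 0.226 to 3.71 ± 0.126 RPKM (SD, n = 4 each, log2 fold change 0.18, adjusted p = 0.00543 by limma), against the direction of HES1 and HEY1. HES6, which opposes HES1, had a log2 fold change of 0.01 (adjusted p = 0.979), and without control replicate 1 it was -0.17 (adjusted p = 0.0373). HES3 and HES5 have no row. None of the 4 other receptor and ligand genes with a row passed the test, and DLK1 has no row. Among genes that HES factors are known to repress, the neuronal factor NEUROG2 rose with a log2 fold change of 0.21 from a level of 0.641 RPKM, and CDKN1C, a cell cycle inhibitor, fell by 0.28. With a pseudocount of 0.1 RPKM the changes of these low genes were larger, 0.42 for NEUROG2 and -0.56 for CDKN1C, as also -0.53 for LFNG and -0.47 for MAML3. After the GC and length correction others were smaller, 0.19 for SPEN, -0.18 for SNW1, -0.18 for CDK8, -0.19 for CCNC and 0.10 for HEYL, all with an adjusted p below 0.05. CDKN1B did not pass the test, and NEUROG3 and ATOH1 have no row.

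**Figure D4:**
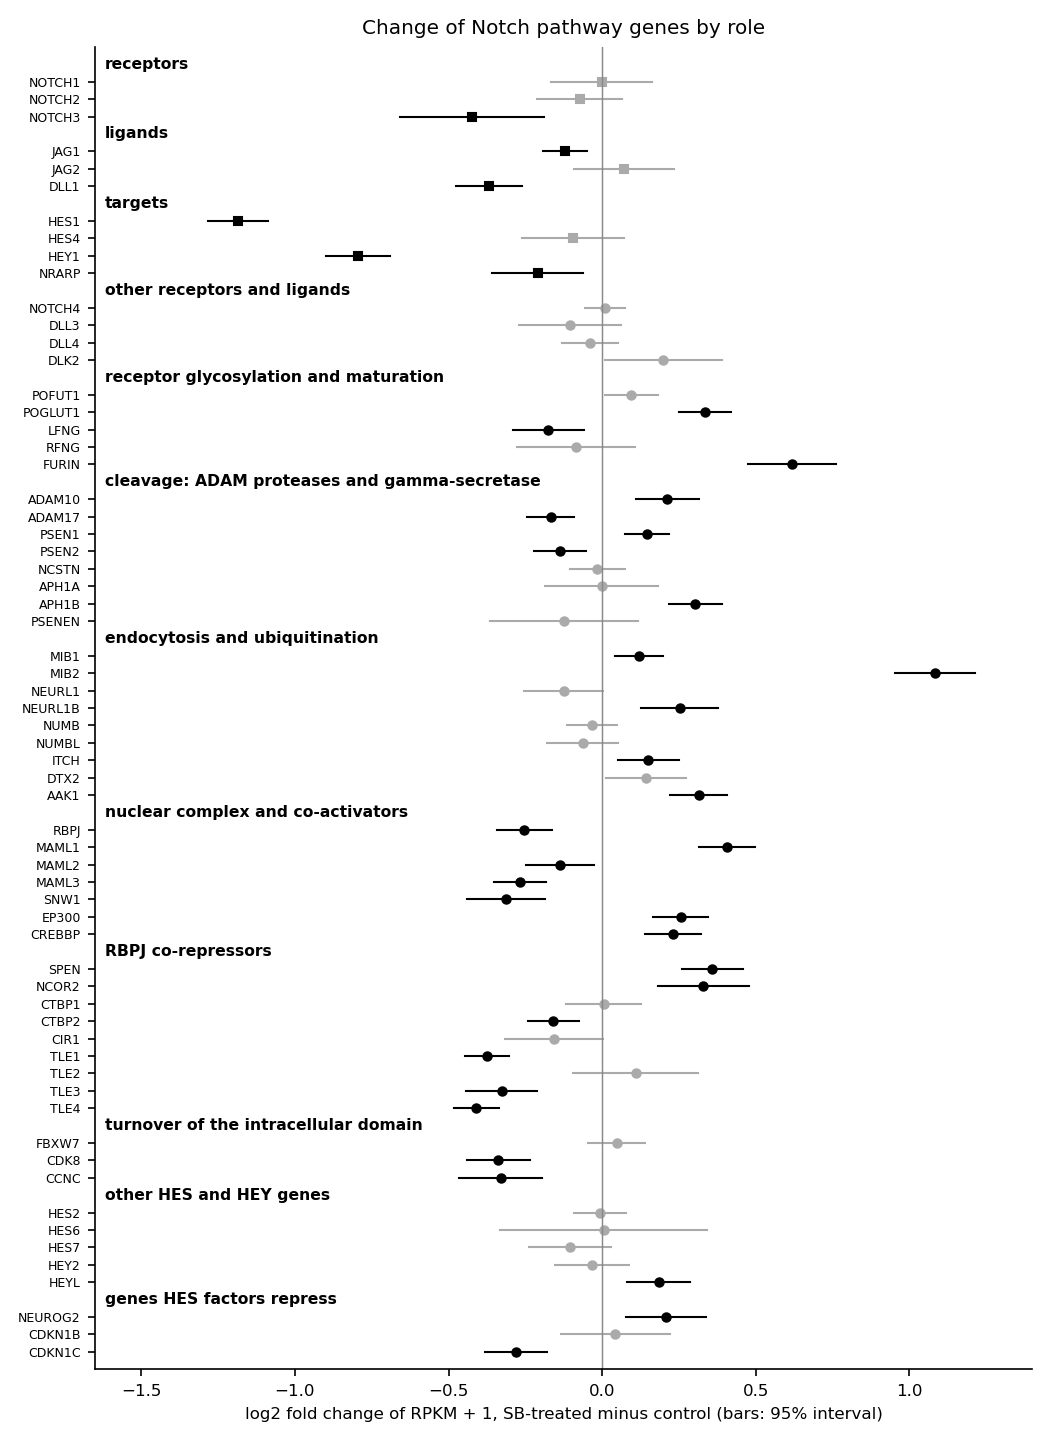
Log2 fold change of RPKM + 1 (x axis, SB-treated minus control) with its 95% interval from limma for the 10 genes (squares) and the other pathway genes (circles), by role. Black marks an adjusted p below 0.05 and grey the rest. HES1 and HEY1 lie farthest to the left and MIB2 farthest to the right.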

How the data were processed

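RNA of 4 control and 4 SB-treated cultures was sequenced by the authors in 50-base single reads from stranded libraries. Per the paper, they mapped to hg38 with TopHat, counted with featureCounts and required more than 1 CPM in 2 or more samples. The authors deposited RPKM values computed on TMM-scaled libraries, and the submitters' notes name TopHat2 2.1.0, featureCounts 1.5.0 and edgeR 3.16.5. Their table also holds a fold change, mean CPM, p-value and FDR of their own comparison, which were not used. No column of per-sample values was left unused.

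The 8 columns were matched to samples by group word and replicate number. Here log2(RPKM + 1) was fitted with limma 3.58.1 in R 4.3.3 (lmFit, eBayes, Benjamini-Hochberg over 14526 genes), with no filter. Whole reads were recovered for 100% of genes (within 0.02 of a whole read), as the smallest whole numbers that reproduce each gene's values. Shares and pair differences were compared with exact permutation tests in scipy 1.17.1, two-sided. Scripts were tested on simulated data. The precision of each value is set by 4 libraries per group.

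All listed genes are named, as are up to 3 called genes per pathway list with the largest change, and RBPJ, HES6 and HEYL. NOTCH2NL, FBXW7 and CDKN1B were named after their values were seen. The genes and lists were chosen with earlier results of these data known. Alternatives were another pseudocount, a 1 RPKM filter, 2 other scalings, voom, an intensity trend, the replicate block and leaving out each library. The GC and length correction was chosen after seeing the data, and 91.5% of genes had a GC value from GENCODE. ChIP-seq was not analysed here, and some listed marker and pathway genes are not reported here.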

Additional observations from a re-analysis of the deposited data

Results flagged for a closer look

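In 3 of 64 groups of 4 libraries, 1 library lay far from the other 3 by Dixon's measure, its gap to the nearest other library divided by the whole range of log2(RPKM + 1). Chance gives about 1 in 20, or 3.2 groups. SB-treated replicate 1 was the lowest for NOTCH1, with a measure of 0.925, and for MIB2, with 0.880. Control replicate 1 was the highest for ADAM17, with 0.908.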

How the results depend on the processing

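NOTCH1, NOTCH2 and HES4, which did not pass the test, turned to 0.075, 0.027 and 0.0083 without the TMM factors, a setting that moved the median log2 ratio of all genes from 0.01 to 0.11 and raised the share of calls that were higher from 50.2% to 65.1%. JAG1 and NRARP then lost their call at -0.053 and -0.11. Voom gave 0.0043 for NOTCH1. The GC and length correction gave -0.26 for NOTCH1 and -0.24 for NOTCH2, now called, -0.14 for JAG2, which turned and was called, and -0.23 for NRARP (adjusted p = 0.0541). With the replicate block added to it, the values were the same, HES4 was called at -0.095 and all 10 genes were lower, against 36.4% of all genes. The replicate block alone left 6 genes lower and changed no call among the 10. With it 19 pathway genes were higher and 14 lower, against 33.6% and 33.7% of all genes. The deviations of same-numbered replicates correlated at 0.38, 0.33, 0.17 and -0.16, so the numbers were not taken as pairs, since 1 pair was not above 0.1. With the block the shares and pair differences cannot pass, since 4 pairs allow no exact p below 0.125.

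With each library left out in turn, the changes ranged from -0.073 to 0.042 for NOTCH1, from -0.14 to -0.038 for NOTCH2 and from -0.17 to 0.088 for HES6, the number of genes lower among the 10 from 6 to 7, and the pathway genes lower from 13 to 22, the last without control replicate 1. Exact tests of 3 against 4 cannot reach the threshold, so shares and pair differences have values only, and all kept their sign. With a pseudocount of 0.1 or none, 8 of the 12 pair differences passed, in place of 9. JAG1, at the lowest level, had 381 reads in its shallowest library, which limits how small a change could be seen.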
